A study of Mus musculus with 10 samples.

Results

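The Hox genes are a family of 39 protein-coding genes in the mouse, and all 39 were found among the 46983 genes counted in the mammary gland libraries, by symbols that name a cluster letter from a to d followed by a number. They lie in 4 clusters of the GRCm38 (mm10) genome. HoxA holds 11 of them on chr6:52155590-52260880, HoxB holds 10 on chr11:96194316-96368256, HoxC holds 9 on chr15:102921103-103036852 and HoxD holds 9 on chr2:74668310-74765142. The number after the letter, the paralog number, gives the place in the cluster, and genes of 1 number in different clusters are copies of a common ancestor.

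RNA was measured in the right thoracic mammary fat pad of virgin female C57BL/6 mice, 1 library per mouse, at postnatal day (PND) 130. The 5 CFA mice had received a diet with 1 mg folic acid (FA) per kg and the 5 HFA mice a diet with 5 mg FA per kg for 4 weeks. All mice then had the same AIN93M maintenance diet for 4 weeks and were fasted before collection, so the groups shared every other treatment the sources give. Libraries are named by group and by their order of listing within it, and between 7672199 and 14829291 reads of each were counted on genes.

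Hox proteins are transcription factors that bind DNA through a homeodomain, mostly together with PBX and MEIS partners of the TALE class. In the embryo they are switched on along the cluster from low to high numbers, and a tissue keeps part of that code afterwards: low numbers are known from the hindbrain and neck, middle numbers from the thoracic trunk, and the highest from the lumbar and tail region, the ends of the limbs and the urogenital tract. The 9th group of 3 clusters is needed together for mammary growth in pregnancy, Hoxc6 acts in the developing mammary bud and Hoxc8 can direct where buds form. Fibroblasts and adipocytes of adult animals also carry Hox RNA that differs between body sites. In bulk tissue, fewer cells of a type and less RNA per cell cannot be told apart.

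The promoters of 4 members of HoxD are shown because they lie on both sides of a sharp step in level. Hoxd8 and Hoxd9 were the first and the fourth most abundant members per length, Hoxd10 was 10.5-fold below Hoxd9, and Hoxd13, at the end of the cluster, had no count. Each run below is the RefSeq window from 250 bases before to 50 bases after a gene's start (GRCm38.p6, plus strand), in lower case, with every CG dinucleotide, the site of DNA methylation, in capitals. They cover chr2:74704365-74704664, chr2:74697513-74697812, chr2:74691641-74691940 and chr2:74667975-74668274.
Hoxd8: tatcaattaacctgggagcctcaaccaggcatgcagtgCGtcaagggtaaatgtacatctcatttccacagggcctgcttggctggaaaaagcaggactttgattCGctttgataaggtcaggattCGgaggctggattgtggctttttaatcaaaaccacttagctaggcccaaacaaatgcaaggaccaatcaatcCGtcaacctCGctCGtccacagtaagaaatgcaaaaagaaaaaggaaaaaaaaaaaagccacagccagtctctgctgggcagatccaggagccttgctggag
Hoxd9: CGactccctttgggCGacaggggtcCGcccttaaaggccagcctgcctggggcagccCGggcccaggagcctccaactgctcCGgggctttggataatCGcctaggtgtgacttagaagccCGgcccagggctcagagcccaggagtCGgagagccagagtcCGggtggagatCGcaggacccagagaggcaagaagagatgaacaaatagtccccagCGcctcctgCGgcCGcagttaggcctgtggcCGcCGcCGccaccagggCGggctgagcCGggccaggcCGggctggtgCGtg
Hoxd10: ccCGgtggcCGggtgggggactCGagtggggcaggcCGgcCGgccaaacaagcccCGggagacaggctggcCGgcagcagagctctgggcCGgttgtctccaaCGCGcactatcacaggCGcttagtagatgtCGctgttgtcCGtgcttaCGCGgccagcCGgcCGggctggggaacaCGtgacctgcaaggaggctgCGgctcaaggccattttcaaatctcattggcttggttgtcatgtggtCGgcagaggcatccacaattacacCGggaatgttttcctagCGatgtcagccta
Hoxd13: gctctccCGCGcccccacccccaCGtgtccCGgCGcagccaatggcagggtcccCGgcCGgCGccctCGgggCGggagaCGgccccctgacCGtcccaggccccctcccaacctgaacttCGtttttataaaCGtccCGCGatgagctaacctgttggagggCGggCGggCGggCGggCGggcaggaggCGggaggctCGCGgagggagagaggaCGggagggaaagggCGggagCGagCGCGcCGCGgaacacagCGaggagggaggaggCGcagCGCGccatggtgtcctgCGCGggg

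The window of Hoxd8, the most abundant member, held 6 CG dinucleotides, that of Hoxd9 20, that of Hoxd10 22 and that of Hoxd13, which had no count, 37. The other HoxD windows did not keep to an order by level. Hoxd12, with no count, held 13, Hoxd11 held 4 and 25 at its 2 starts, Hoxd4 4, Hoxd3 20 and Hoxd1 29. RefSeq windows were at hand for 22 of the 39 members, 2 of them with 2 starts, and these 24 windows held between 4 and 45 CG dinucleotides with a median of 14.5, beside a median of 7 over 32851 windows of all genes. The 9 windows of members at 1 CPM per kb or more ranged from 4 to 29 with a median of 12. The 15 windows of members below that level ranged from 4 to 45 with a median of 20. The 2 ranges overlap over most of their length, and methylation itself was not measured.

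Levels are given as CPM, counts per gene relative to all counts of the library, after TMM scaling, and between genes as CPM per kb of exonic length. Of the 39 members, 25 had a count in all 10 libraries and 8 in some of them. The other 6 had no count in any library, namely Hoxb1, Hoxb13, Hoxc11, Hoxc12, Hoxd12 and Hoxd13, which allows a level of up to 0.0249 CPM for each over the 10 libraries, by counting error alone. All members together received 17900 counts, and the pair with the highest level, Hoxd8 and Hoxc8, made up 33.9% of the summed level. The middle of the clusters was thus the most abundant part: paralogs 5 to 8 gave 66.1% to 71.9% of the summed Hox level in each library, paralogs 1 to 4 gave 15.7% to 24.3% and paralogs 9 to 13 gave 9.64% to 16.8%.

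**Figure D1:**
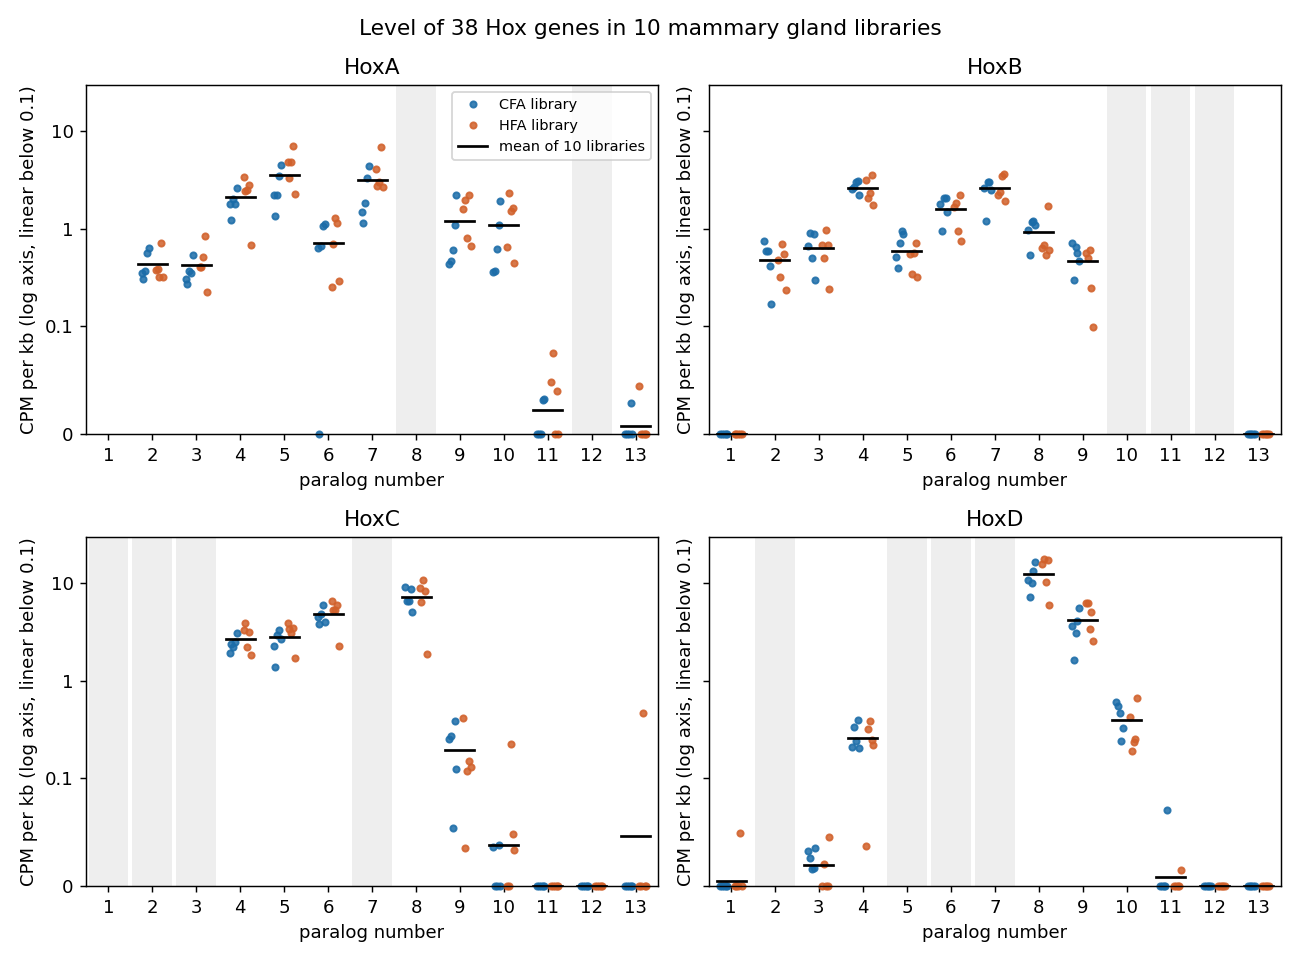
The level of 38 Hox genes in CPM per kb (vertical, log axis, linear below 0.1) is plotted against its paralog number (horizontal), 1 panel per cluster, with CFA libraries in blue, HFA libraries in orange and black lines at the mean of 10 libraries. Grey columns mark paralogs that the cluster does not have. Points drop by over 10-fold on average from Hoxc8 to Hoxc9, Hoxd9 to Hoxd10, Hoxd10 to Hoxd11 and Hoxa10 to Hoxa11.

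HoxD was carried by Hoxd8 and Hoxd9. Hoxd8 stood at 29.8, 19.96, 27.6, 36.9 and 45.7 CPM in CFA libraries 1 to 5 and at 43.5, 49.0, 28.5, 47.1 and 16.4 CPM in HFA libraries 1 to 5. Hoxd9 stood at 7.69, 3.51, 6.57, 8.74 and 11.9 CPM in the CFA libraries and at 13.3, 13.4, 7.24, 10.9 and 5.47 CPM in the HFA libraries. For both genes HFA library 5 was the lowest of its group and CFA library 2 the lowest of its own, and the groups overlapped. Per kb, Hoxd8 was 3.03-fold above Hoxd9, with a range of 2.33 to 4.43 over the libraries, and Hoxd9 was above Hoxd10 in 10 of 10, by 3.02-fold to 32.9-fold. On the other side of Hoxd8, Hoxd4 was at 0.259 CPM per kb and lower in every library, Hoxd3 at 0.0193, and Hoxd1 had a count in 1 library. Hoxd3 and Hoxd4 have only 37.2% and 47.7% of their exonic bases to themselves, so reads between them may be dropped or split and their levels are uncertain. Beyond Hoxd10, Hoxd11 had a count in 2 libraries.

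HoxC dropped sharply after Hoxc8. Hoxc8, which acts in the thoracic skeleton and in the placing of mammary buds, stood at 26.2, 18.8, 18.7, 24.8 and 14.3 CPM in CFA libraries 1 to 5 and at 25.02, 18.2, 30.7, 23.7 and 5.28 CPM in HFA libraries 1 to 5. The last of these was 5.80-fold below the highest and the lowest of all 10. Its neighbour Hoxc9 reached only 0.0863 to 0.996 CPM, and Hoxc8 was above Hoxc9 per kb in 10 of 10 libraries, on average 37.6-fold, from 14.2-fold to 181-fold. Hoxc6, a gene of the mammary bud and mesenchyme, stood at 10.9, 9.10, 11.6, 14.3 and 9.70 CPM in the CFA libraries and at 15.8, 12.9, 12.8, 14.3 and 5.41 CPM in the HFA libraries. Hoxc4, the lowest number in this cluster, stood at 4.88, 6.03, 5.72, 6.43 and 7.98 CPM in the CFA libraries and at 8.52, 10.01, 5.68, 8.14 and 4.71 CPM in the HFA libraries. Levels per kb therefore climbed from 2.65 in Hoxc4 through 2.80 in Hoxc5 and 4.85 in Hoxc6 to 7.26 in Hoxc8 before the drop to 0.193, with Hoxc4 and Hoxc5 not separated, since Hoxc4 was the higher in 4 of 10 libraries.

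HoxA spread over more numbers, with Hoxa5 and Hoxa7 as its most abundant genes. Hoxa5, needed for lung and neck development and expressed in mammary epithelium, stood at 4.19, 2.52, 4.16, 6.50 and 8.43 CPM in CFA libraries 1 to 5 and at 9.08, 6.21, 9.08, 13.2 and 4.26 CPM in HFA libraries 1 to 5. Hoxa7 stood at 4.26, 3.29, 5.33, 9.47 and 12.6 CPM in the CFA libraries and at 11.7, 7.85, 8.66, 19.9 and 7.77 CPM in the HFA libraries. Both were lowest in CFA library 2 and highest in HFA library 4, with overlapping groups. Between them lies Hoxa6, which was below Hoxa5 and below Hoxa7 in 10 of 10 libraries and had no count in CFA library 2. Hoxa9 stood at 2.40, 2.63, 3.38, 6.07 and 12.3 CPM in the CFA libraries and at 8.86, 10.96, 4.54, 12.4 and 3.76 CPM in the HFA libraries. Hoxa10 stood at 1.17, 1.21, 2.02, 3.61 and 6.27 CPM in the CFA libraries and at 2.10, 7.59, 4.97, 5.39 and 1.46 CPM in the HFA libraries. In the CFA group CFA library 5 was the highest for Hoxa5, Hoxa7, Hoxa9 and Hoxa10. Per kb, Hoxa10 was above Hoxa11 in 10 of 10 libraries, on average 48.0-fold, and Hoxa11 had no count in 5 libraries. Hoxa11 received 6 counts in all and has 65.0% of its exonic bases to itself. By the length of such bases alone the ratio was 31.2-fold.

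In HoxB no gene stood far above the others. Hoxb4, known from blood stem cells and the neck vertebrae, stood at 6.59, 6.91, 7.74, 7.88 and 5.75 CPM in the CFA libraries and at 8.08, 5.35, 5.96, 9.23 and 4.46 CPM in the HFA libraries. Hoxb7 stood at 4.05, 1.86, 4.68, 4.62 and 3.88 CPM in the CFA libraries and at 3.43, 3.71, 5.39, 5.58 and 2.99 CPM in the HFA libraries. These 2 genes, at 2.65 and 2.60 CPM per kb, did not differ beyond their spread. Hoxb2, a hindbrain gene and the lowest number tested in the cluster, stood at 2.61, 2.08, 2.08, 1.45 and 0.597 CPM in the CFA libraries and at 1.66, 1.12, 2.41, 1.92 and 0.827 CPM in the HFA libraries. Hoxb5 stood at 1.44, 1.10, 2.02, 2.67 and 2.46 CPM in the CFA libraries and at 1.55, 0.949, 1.56, 2.01 and 0.891 CPM in the HFA libraries. Both had overlapping groups, and CFA library 5 held the lowest Hoxb2 value. Hoxb8 stood at 2.54, 1.43, 3.12, 3.18 and 2.91 CPM in the CFA libraries and at 1.66, 1.81, 1.42, 4.57 and 1.59 CPM in the HFA libraries. Hoxb9, of the group needed for mammary growth, stood at 1.85, 0.768, 1.69, 1.45 and 1.19 CPM in the CFA libraries and at 1.44, 1.29, 1.56, 0.640 and 0.255 CPM in the HFA libraries. HFA library 4 was the highest for Hoxb8 and the second lowest for Hoxb9. Per kb, Hoxb8 was below Hoxb7 in 10 of 10 libraries, and Hoxb9 below Hoxb8 in 9 of 10. The last gene of the cluster, Hoxb13, 77.1 kb further from start to start, had no count. Hoxb3 has 47.1% of its exonic bases to itself and its level is uncertain.

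With members ordered by level across clusters, only the means of the first pair differed by more than the SD of both. That SD is between libraries and ignores that the genes of a pair come from the same libraries, so library counts are given too. Hoxd8, at 12.6 ± 4.26 CPM per kb (SD, n = 10), was above Hoxc8, at 7.26 ± 2.54, in 9 of 10 libraries. Hoxc8 was above Hoxc6 and Hoxa5 above Hoxa7 in 9 of 10 libraries, Hoxd9 above Hoxa5 in 8, Hoxc6 above Hoxd9 in 7 and Hoxa7 above Hoxc5 in 4, and in these 5 pairs the difference of the means was below the larger SD. At the posterior end, the 9 genes of paralogs 11 to 13 received 21 counts in all, and 5 of the 9 received none. Of these counts 8 were Hoxc13 in HFA library 3, where it stood at 1.14 CPM with no count in any other library. Hoxc13 is a gene of the hair follicle that drives hair keratins. The summed level of 6 skin and hair markers was 348 CPM in that library and 1.34 to 6.14 CPM in the other 9, and Tchh, a protein of the hair root sheath, was at 205 CPM there. Whether hair tissue was the source of Hoxc13 was not tested.

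The code along the clusters was similar in all libraries. The mean paralog number, weighted by CPM per kb, was 6.72, 6.47, 6.55, 6.67 and 6.84 in CFA libraries 1 to 5 and 6.67, 6.85, 6.64, 6.65 and 6.58 in HFA libraries 1 to 5. The library with the most anterior value was CFA library 2 and that with the most posterior value HFA library 2, and 4 of 5 HFA values lay within the CFA range. The group means were 6.65 ± 0.143 for CFA and 6.68 ± 0.102 for HFA (SD, n = 5), a difference of 0.026 that is smaller than the spread in either group. The share of paralogs 1 to 4 was 18.6% ± 3.46 against 17.3% ± 0.983, and that of paralogs 5 to 8 69.5% ± 2.44 against 68.9% ± 2.49. Paralogs 9 to 13 gave 11.5%, 9.64%, 10.6%, 11.7% and 16.4% in the CFA libraries and 13.8%, 16.8%, 11.8%, 11.9% and 14.9% in the HFA libraries. The group means of 12.0% ± 2.59 and 13.8% ± 2.10 (SD, n = 5) differed by 1.87 percentage points, less than the SD of either group. No p was computed for these scores, because they are sums over chosen genes.

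**Figure D2:**
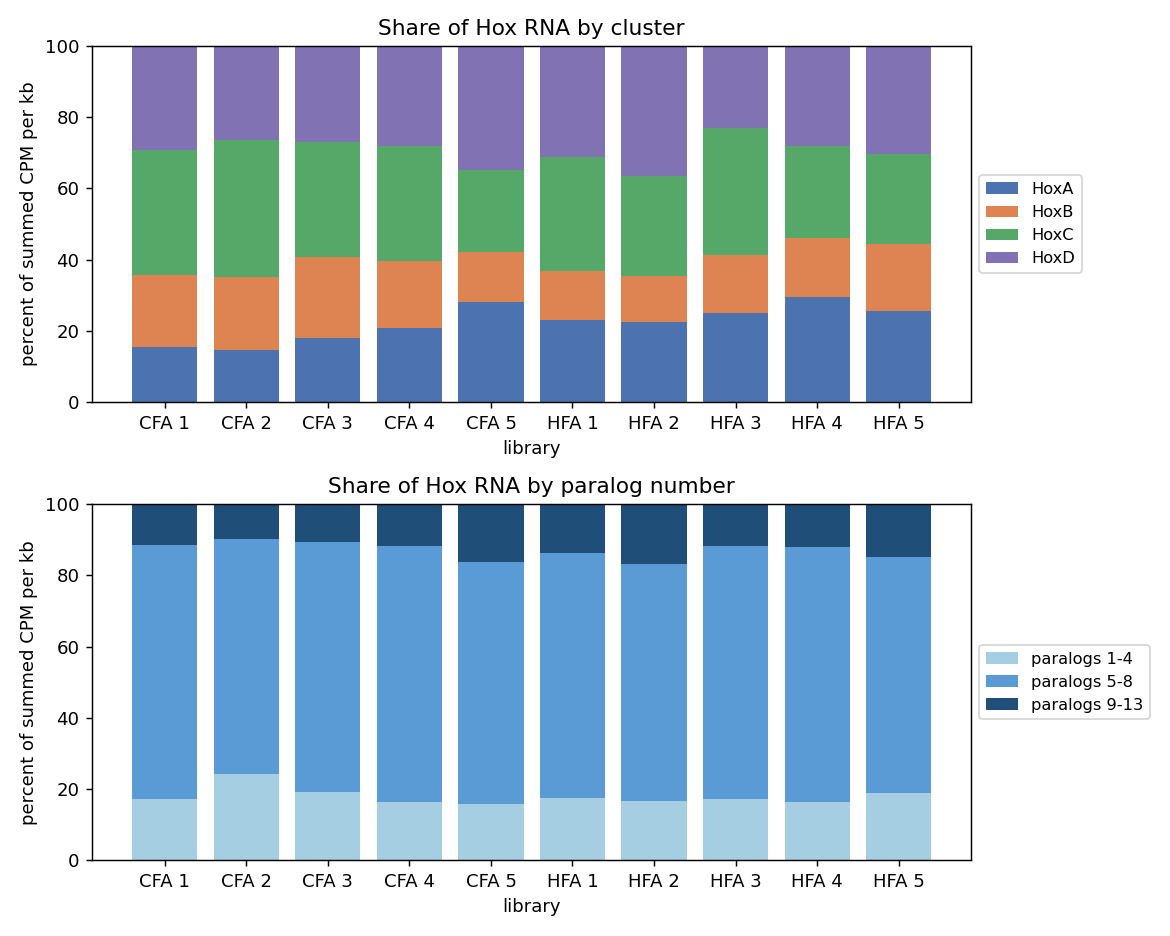
Bars show the percent of summed CPM per kb over all 39 Hox genes (vertical, 0 to 100) in each of the 10 libraries (horizontal), divided by cluster in the upper panel and by paralog number in the lower. HoxA takes 14.7% to 28.1% in the CFA libraries and 22.4% to 29.4% in the HFA libraries, while paralogs 5 to 8 take the largest share in every library.

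In percentage points, the balance between clusters varied more than the balance along them. HoxA gave 15.4%, 14.7%, 17.8%, 20.7% and 28.1% of the summed level in CFA libraries 1 to 5 and 22.9%, 22.4%, 25.1%, 29.4% and 25.5% in HFA libraries 1 to 5. CFA library 5 lay among the HFA libraries and the other 4 CFA libraries lay below all of them, with group means of 19.3% ± 5.43 and 25.1% ± 2.77 (SD, n = 5). HoxB gave 19.3% ± 3.31 in CFA and 15.7% ± 2.42 in HFA, a difference of -3.61 percentage points. This and the difference of 5.72 points in the share of HoxA exceeded the SD of either group, while single libraries of the groups overlapped in both. Shares depend on each other, so a higher HoxA share by itself lowers the HoxB share. In summed level HoxA was at 10.9 ± 5.06 in CFA and 15.8 ± 5.68 CPM per kb in HFA. HoxB was at 10.3 ± 1.91 and 9.62 ± 2.70, and neither difference exceeded the SD of either group. The shares of HoxC, 32.2% ± 5.80 and 29.4% ± 4.38, and of HoxD, 29.1% ± 3.46 and 29.9% ± 4.88, differed by less than the SD of either group. The ratio of HoxA to HoxB was 0.755, 0.724, 0.777, 1.10 and 2.01 in the CFA libraries and 1.66, 1.74, 1.54, 1.79 and 1.34 in the HFA libraries. All HFA ratios lay within the CFA range, whose highest value was that of CFA library 5.

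The second digit of the sample titles, whose meaning the labels do not give, is 2 or 3 in both groups. Among libraries with a 2, HoxA gave 15.0% in 2 CFA libraries and 23.5% in 3 HFA libraries, and among those with a 3 it gave 22.2% in 3 CFA libraries and 27.5% in 2 HFA libraries, the same direction in both. HoxB was lower in HFA within both as well, 14.3% against 20.3% and 17.8% against 18.6%. The mean paralog number was higher in HFA by 0.122 among the former and differed by -0.074 among the latter, and so kept no direction.

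The question put by the design was whether Hox RNA differed between the FA groups. Of the 39 members, 21 passed the filter on low counts and entered the edgeR quasi-likelihood test with 15610 genes: 7 of 12 from paralogs 1 to 4, 10 of 11 from paralogs 5 to 8 and 4 of 16 from paralogs 9 to 13. None of the 21 passed at an adjusted p of 0.05, as was true of all genes (0% called), and their adjusted p ran from 0.694 to 1.00. At an unadjusted p under 0.05, 0 members passed beside 7.36% of all genes. The likelihood ratio test called 0.211% of genes, DESeq2 0.389% and limma voom 0%, and each called 0 members. In no member did the 2 groups keep apart, beside 0.993% of all genes.

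The direction of these differences was uneven between clusters, which is a description, as genes of 1 cluster in 1 library are not independent. HoxA had 7 of 7 tested members at a higher level in HFA, with log2 fold changes from 0.30 to 0.69 and a median of 0.58. HoxB had 7 of 8 at a lower level, from -0.50 to 0.13 with a median of -0.18, while HoxC had 3 of 4 and HoxD 2 of 2 at a higher level. In all, 13 of 21 were above 0, beside 60% of all genes tested, and the median was 0.20 beside 0.064 over all genes. That median was 0.030 without CFA library 2, 0.071 without HFA library 4, 0.12 without HFA library 2, 0.33 without CFA library 5 and 0.34 without HFA library 5. It was 0.092 by limma voom, and 0.047 and 0.12 with lymphocyte and with muscle markers as covariates. The classes by paralog number did not part in this way, with 4 of 7, 6 of 10 and 3 of 4 members above 0 from the lowest numbers to the highest.

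**Figure D3:**
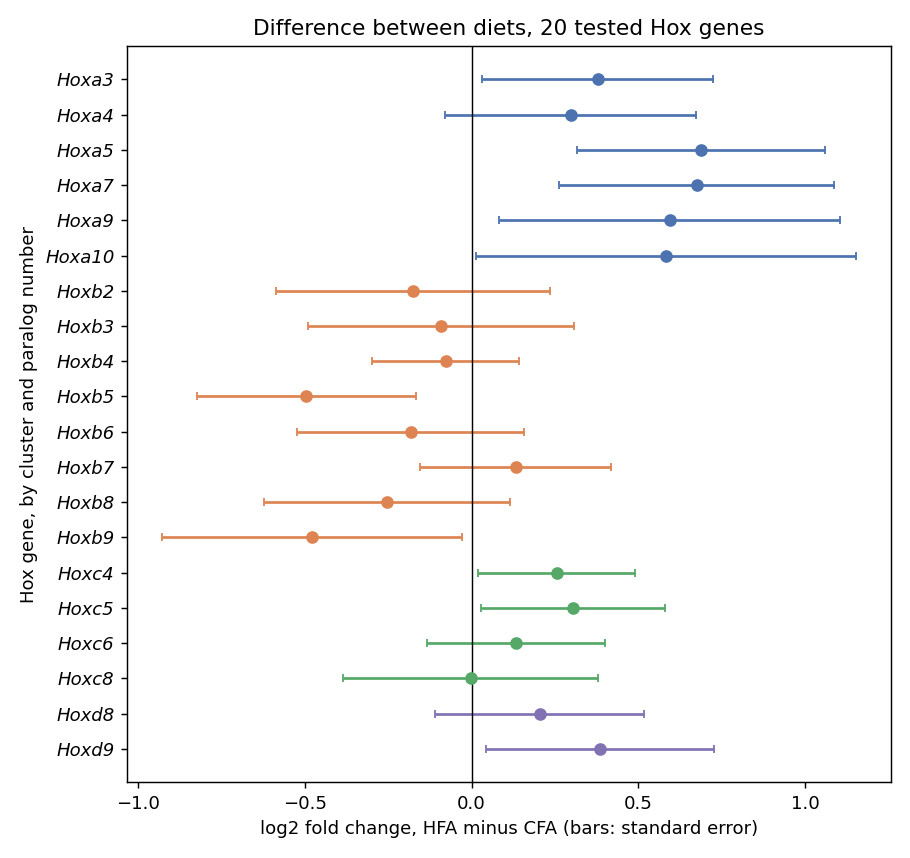
The log2 fold change, HFA minus CFA, with its standard error (horizontal) is plotted for 20 of the 21 tested Hox genes (vertical), ordered and coloured by cluster. The HoxA genes shown lie between 0.30 and 0.69, 7 of the 8 HoxB genes lie below 0, and none passed the test.

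Hoxa5 had the largest log2 fold change in this fit, 5.16 ± 2.31 against 8.36 ± 3.37 CPM (CFA against HFA, SD, n = 5), or 0.69 on the log2 scale with a standard error of 0.37 and an edgeR adjusted p of 0.694. Hoxa7 followed with 6.99 ± 3.93 against 11.2 ± 5.15 CPM, and Hoxa9 with 5.36 ± 4.15 against 8.11 ± 3.84 CPM, at log2 fold changes of 0.67 and 0.59. The lowest was Hoxb5, with 1.94 ± 0.666 against 1.39 ± 0.470 CPM, or -0.50 on the log2 scale with a standard error of 0.33 and an edgeR adjusted p of 0.749. Hoxb9 was at -0.48 and Hoxb8 at -0.25. Without HFA library 4 Hoxb8 was at -0.70, and with a term for the second digit of the titles Hoxa7 was at 0.94, Hoxa9 at 0.90 and Hoxb9 at -0.74, with no member passing. Of the 4 most abundant members, Hoxd8 was at 0.20 with a standard error of 0.31, Hoxc8 at -0.0022 with 0.38, Hoxc6 at 0.13 with 0.27 and Hoxd9 at 0.38 with 0.34. Standard errors over the 21 members ran from 0.22 to 0.57, and every estimate lay within 2 standard errors of 0.

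The tested members had a larger median spread between mice than the genes tested as a whole. The median biological coefficient of variation was 0.397 for the 21 tested members and 0.294 over all genes tested, and the highest library exceeded the lowest by a median of 3.52-fold against 2.38-fold. Their median level was also lower, 3.97 CPM against 20.3 CPM. Lower counts carry more counting error, which enters the fold range, whereas the coefficient estimates variation beyond counting error. Whether the lower level bears on either difference was not tested. The summed level of all members was 52.2, 37.3, 51.4, 64.7 and 65.4 CPM per kb in CFA libraries 1 to 5 and 72.03, 67.5, 62.4, 81.3 and 31.1 CPM per kb in HFA libraries 1 to 5. CFA library 2 and HFA library 5 were the lowest, 3 HFA libraries exceeded every CFA library, and the groups overlapped.

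Those libraries also differed in the tissues they held. Luminal markers summed to 378 to 2359 CPM and adipocyte markers to 8546 to 14518 CPM, so both tissues of the gland were present in all. The 6 B cell markers summed to 302 CPM in CFA library 2, 800 CPM in CFA library 5 and 2375 CPM in HFA library 5, and to 3.25 to 4.67 CPM in the other 7. The 6 T cell markers were high in the same 3 libraries, at 149 to 824 CPM against 5.67 to 13.3 CPM. The 6 skeletal muscle markers, all of them counted in every library, summed to 16127, 6194, 19761, 31055 and 38529 CPM in CFA libraries 1 to 5 and to 43154, 47847, 38859, 50960 and 658 CPM in HFA libraries 1 to 5. Fibroblast markers ranged from 973 to 2766 CPM in CFA and from 442 to 3102 CPM in HFA. The 5 brown fat markers summed to 47.0, 160, 131, 252 and 535 CPM in CFA libraries 1 to 5 and to 383, 106, 1256, 1660 and 1318 CPM in HFA libraries 1 to 5, with 5 of 5 higher in HFA, a median of 1.82 on the log2 scale and 3 of 5 at an unadjusted p under 0.05. The 5 basal markers were all lower in HFA, at a median of -1.05, and 3 of 4 Schwann cell markers were higher, at a median of 0.81. No marker of these lists passed after adjustment.

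The levels of the clusters can be set beside these markers. The summed HoxA level was 8.02, 5.49, 9.17, 13.4 and 18.4 CPM per kb in CFA libraries 1 to 5, which is their order by muscle markers, and 16.5, 15.2, 15.6, 23.9 and 7.92 CPM per kb in the HFA libraries. The summed HoxB level was 10.6, 7.58, 11.8, 12.2 and 9.16 CPM per kb in the CFA libraries and 9.96, 8.69, 10.1, 13.4 and 5.92 CPM per kb in the HFA libraries. The summed HoxC level was 18.2, 14.4, 16.6, 20.9 and 15.0 CPM per kb in the CFA libraries and 23.0, 19.0, 22.2, 21.1 and 7.80 CPM per kb in the HFA libraries. The summed HoxD level was 15.3, 9.82, 13.8, 18.2 and 22.9 CPM per kb in the CFA libraries and 22.5, 24.6, 14.4, 22.8 and 9.47 CPM per kb in the HFA libraries. All 4 clusters were thus lowest in HFA library 5 and CFA library 2. These libraries had the least muscle RNA and were also among the 3 that held B cell markers. HFA library 5, nearly without muscle RNA, had the second lowest HoxA level and the lowest HoxB level, but a HoxA share of 25.5%. Brown fat markers were high in that library and the highest of the CFA group in CFA library 5, whose HoxA share was 28.1%. HFA library 4 was the highest of all in both, at 1660 CPM and 29.4%. By contrast, HFA library 2 had 106 CPM of brown fat markers and a HoxA share of 22.4%. CFA libraries 2, 3 and 4 had more, at 160, 131 and 252 CPM, but lower shares of 14.7%, 17.8% and 20.7%. Whether brown fat RNA bears on the HoxA share was not tested. With the muscle markers as a covariate, HoxA had 7 of 7 members above 0, at log2 fold changes from 0.13 to 0.70 (median 0.52), and the lowest edgeR adjusted p of any member was 0.267. All 6 muscle markers were themselves higher in HFA, so this covariate does not separate muscle RNA from diet. With lymphocyte markers as a covariate, 7 of 7 were above 0, the lowest at 0.047 (median 0.51). With the last 3 title digits as a block, the lowest was 0.030 (median 0.78). With fibroblast markers as a covariate the HoxA median was 0.57, with 7 of 7 above 0, and HoxB had 5 of 8 members below 0. With brown fat markers as a covariate the HoxA median was 0.41, with 7 of 7 above 0, and HoxB had 6 of 8 members below 0. In that fit Hoxa5 was at 0.41, Hoxa7 at 0.33 and Hoxb5 at -0.79. The brown fat markers (5 of 5) and the tested B cell (3 of 3) and T cell (6 of 6) markers were also higher in HFA. The brown fat and lymphocyte covariates therefore do not separate tissue RNA from diet either.

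**Figure D4:**
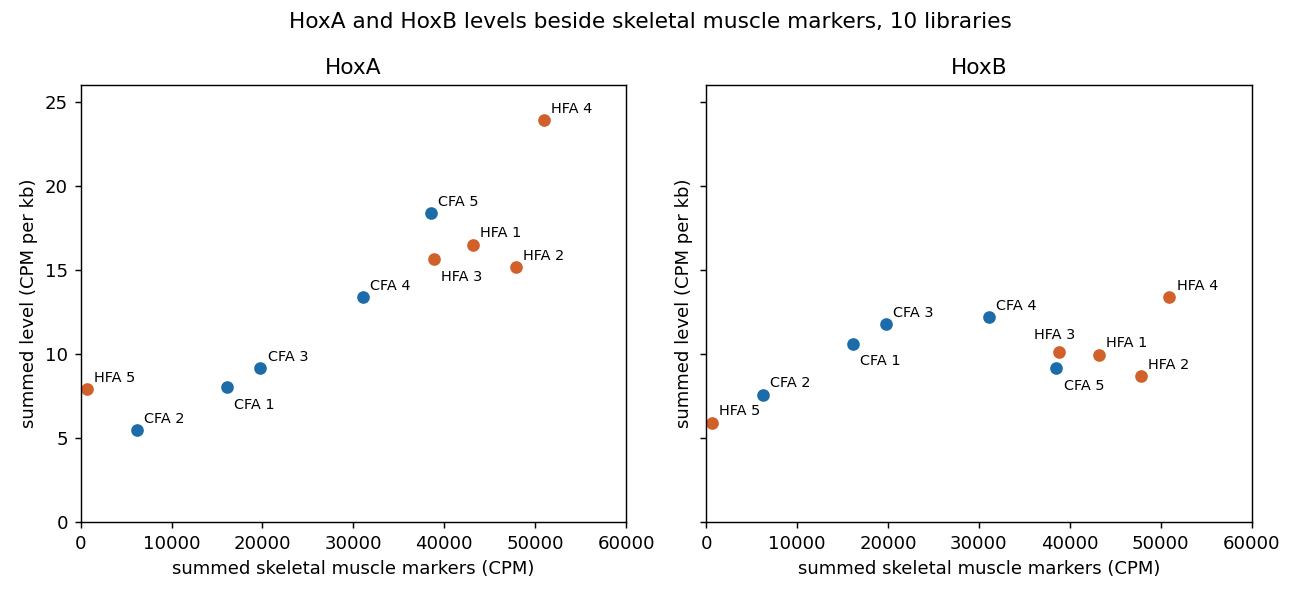
The summed level of HoxA (left) and HoxB (right) in CPM per kb is plotted against the summed skeletal muscle markers in CPM, 1 point per library, CFA in blue and HFA in orange. HoxA ranges from 5.49 in CFA library 2 to 23.9 in HFA library 4, and HoxB from 5.92 in HFA library 5 to 13.4 in HFA library 4.

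Without the 3 libraries that held B cell markers, 3 CFA and 4 HFA libraries remained and the differences within HoxA grew. All 7 tested members were higher in HFA, by 0.56 for Hoxa4 to 1.23 for Hoxa9 on the log2 scale (median 0.92). The edgeR adjusted p was 0.103 for Hoxa5 and 0.113 for Hoxa9, and 0 members passed, beside 2.98% of the 15759 genes tested. The groups kept apart for Hoxa3 and Hoxa4, 2 of 21 members, beside 20.4% of all genes. The 3 CFA libraries left had less muscle RNA than any of the 4 HFA libraries, so that diet and muscle RNA cannot be told apart in this subset. HoxB then had 6 of 8 members below 0, with a median of -0.23.

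The partners and regulators of Hox proteins were read in the same fit. Of 9 genes for TALE cofactors, 8 were tested, 6 were higher and 2 lower in HFA, and 0 passed. Pbx2, whose protein binds DNA beside Hox proteins, was at 13.6 CPM per kb, Pknox1 at 3.08 and Meis3 at 2.98. Pbx2 was at 48.0 and 50.7 CPM in the CFA and HFA mice, with an edgeR adjusted p of 0.902. Of 12 genes that mark limb and trunk position, 11 were tested and 0 passed. Tbx15, a T-box gene of the trunk dermis and of muscle and fat, was the highest at 26.5 CPM per kb and ranged from 11.5 to 186 CPM, followed by Lmx1b, a gene of dorsal limb, Tbx3, needed for mammary buds, and Shox2, at 4.92, 4.76 and 2.82 CPM per kb. The forelimb gene Tbx5 was at 0.339 CPM per kb, the hindlimb genes Tbx4 and Pitx1 were at 0.617 and 0.263, and Hand2 had 5 counts in all.

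Of 21 genes for upstream regulators, retinoic acid enzymes and receptors among them, 17 were tested, 13 were higher and 4 lower in HFA, and 0 passed after adjustment. The highest were Rxra, Aldh1a1, Rarg and Rxrb, at 30.3, 22.5, 13.7 and 13.1 CPM per kb. At an unadjusted p under 0.05, 2 were higher and 1 lower in HFA, beside 7.36% of all genes. The first 2 were Kdm6b, which removes the repressive methyl mark of histone H3 lysine 27, at 38.5 and 47.1 CPM in CFA and HFA, and the retinoid receptor gene Rxrb, at 47.7 and 56.4 CPM. The other was Crabp2, a carrier of retinoic acid, at 4.95 and 2.10 CPM. Their edgeR adjusted p were 0.670, 0.670 and 0.655. The Cdx genes, which switch on middle Hox genes in the embryo, had no count for Cdx1, Cdx2 and Cdx4.

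Within the clusters lie 43 non-coding genes, of which 20 had a count and 5 were tested, with 0 passing. Per length, Gm11539 was the highest at 36.1 CPM per kb, but it is a processed pseudogene whose reads may belong to its parent gene. Hotairm1, an antisense transcript of HoxA, had 0.255 to 1.46 CPM, and Hotair, from HoxC, had no count. Among the coding genes that border the clusters, Calcoco1, Mtx2, Skap2 and Smug1 were the highest of those tested, at 17.7, 13.99, 4.27 and 2.52 CPM per kb. On the posterior side, Evx1 beside HoxA had 1 count and Evx2 beside HoxD had none. Counts were thus few or absent from the posterior end of these 2 clusters up to the next gene.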

How the data were processed

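Per the labels and the methods of the study, 75 bp paired reads of TruSeq RNA v2 libraries were aligned to GRCm38 with TopHat2 2.0.14 and Bowtie2 2.2.5 and counted on Ensembl release 83 genes with HTSeq 0.6.1. The strand setting is not given in the sources used here. The authors deposited raw counts per gene, without normalization, and had removed 1 sample whose reverse reads were poor and 1 that stood apart by MAD score. The 5 summary lines per library were left out. Symbols and lengths came from GENCODE M21 (46488 of 46983 genes matched). Groups came from the labels. In R 4.3.3, edgeR 4.0.16 fitted HFA against CFA (filterByExpr, TMM, quasi-likelihood test, Benjamini-Hochberg adjustment over 15610 genes, threshold 0.05). Cage, a term in the authors' model, is not in the labels. DESeq2 1.42.0, limma 3.58.1 (voom) and other covariates were alternatives. The test was tried on simulated data. Members and lists were chosen with earlier results of these data known. Members given in every library were the 2 most abundant of each cluster, the lowest and highest tested number, and the 3 highest and 3 lowest by fold change. Of other lists, those with an unadjusted p under 0.05 and up to 4 with the highest level were named. Shares and summed levels used all 39 members. Hoxa6, Hoxc9, Hoxc13, Tbx5, Tbx4, Pitx1, Hand2, Tchh and the members with shared exons were named after their values were seen. The last 3 digits of the titles, whose meaning is not given, are shared by 4 libraries of each group and were tried as a block. One member and 1 cofactor gene entered the counts, sums and shares but are not reported here.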

Additional observations from a re-analysis of the deposited data

Results flagged for a closer look

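In each group of 5 libraries, values of 27 members and 9 library summaries were searched for a library far from the other 4 by Dixon's criterion. Of 72 groups of values, 4 were picked out, and chance flags about 1 in 20. Hoxa2 was at 1.28 CPM in HFA library 4, with 0.568 to 0.690 CPM in the other HFA libraries. In the same library Hoxb8 was at 4.57 CPM, with 1.42 to 1.81 CPM in the other 4. Hoxb7 was at 1.86 CPM in CFA library 2, with 3.88 to 4.68 CPM in the other CFA libraries. Hoxc13 was at 1.14 CPM in HFA library 3 and at 0 in the others. Beside values of 0 any count would have been flagged, so this flag cannot be weighed against the chance rate.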

How the results depend on the processing

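The count of Hox members called stayed at 0 under every alternative that was run. The count of all genes called, 0 in the reported fit, was 33 by the likelihood ratio test, 60 by DESeq2, 3 with lymphocyte markers (B and T cell) as a covariate, 469 without the 3 libraries that held B cell markers, and 0 to 6 with 1 library left out, the 6 without HFA library 5. The cause was not tested. The sign changed for Hoxc6, to -0.022 under limma voom and -0.064 with lymphocyte markers as a covariate, for Hoxb2, to 0.051 with the fibroblast and 0.011 with the brown fat covariate, for Hoxc8, to 0.20 and 0.069 with these covariates and to 0.066 without the 3 libraries, and for Hoxb3, to 0.12 with the fibroblast covariate and 0.039 without the 3 libraries, and also without CFA library 2, CFA library 4 or HFA library 5. With 1 library left out, Hoxc8 ranged from -0.19 to 0.20, Hoxb7 from -0.086 to 0.21 and Hoxa9 from 0.36 to 1.16 (1.16 without CFA library 5). The HoxA share kept its direction in each, at 4.56 to 7.91 percentage points, and the HoxB share at -4.94 to -2.70. The difference in mean paralog number changed sign without CFA library 2 and without HFA library 2 (-0.019 and -0.017). Over the 21 tested members and 22 alternatives, 17 of 462 log2 fold changes had the opposite sign, in 5 members. The fibroblast, muscle and brown fat covariates, the block, the subset without 3 libraries and the HoxA and HoxB shares and their ratio were chosen after seeing the data. Libraries whose titles share the last 3 digits had deviations correlated at 0.298, -0.294, 0.111 and 0.410 over 15610 genes, so the digits were not taken as a pairing. With them as a replicate block, 0 genes and 0 members were called, and the median of the tested members was 0.16. Standard errors of 0.22 to 0.57 on the log2 scale limit what 5 mice per group can show, and 18 members, the 9 of paralogs 11 to 13 among them, had too few counts for the test.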
